A study of Homo sapiens with 2 samples.

Results

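Vimentin, fibronectin, SPARC and CEMIP, all associated with mesenchymal cells, had 2.44-fold to 7.60-fold higher mRNA levels in CREB1 knockout HCT116 cells than in wild-type cells. Of the 5 transcription factors described with them, known drivers of epithelial-mesenchymal transition (EMT), 0 passed the same 2-fold rule. The rule was passed by 376 of all 12886 expressed genes, and ZEB2 and SNAI2 had too few counts for it to apply. The genes described are 10 of the 57820 identifiers in the deposited table: the mesenchymal genes SPARC, VIM, FN1, CDH2 and CEMIP and the EMT factors ZEB1, ZEB2, SNAI1, SNAI2 and TWIST1. They were matched by symbol through the GENCODE 29 annotation, and all 10 were present. The set was chosen by function and with the knockout to wild-type ratios of these same 2 libraries already known, so the ratios of its members are a description and support nothing beyond it.

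HCT116 is an established human colorectal carcinoma line of epithelial type. The data are 1 RNA library from cells of genotype CREB1 wild-type and 1 from cells of genotype CREB1 knockout, both grown in the same serum-containing DMEM medium. The knockout cells, per the labels' protocols, are a lone clone picked for lacking CREB1 after delivery of a nickase Cas9 plasmid (PX461) with guides to that gene, so clone and genotype cannot be told apart. The sources used here do not give whether the wild-type culture is clonal. Total RNA depleted of ribosomal RNA was sequenced in strand-specific, paired-end libraries.

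EMT is the process in which epithelial cells loosen their junctions and take on a migratory, matrix-producing state. The SNAI and ZEB zinc finger proteins bind E-boxes in promoters such as that of the epithelial cadherin gene CDH1 and repress them, and TWIST1 is a basic helix-loop-helix factor of the same program. Vimentin filaments, fibronectin and a change from E-cadherin to N-cadherin are the usual readouts, and carcinoma lines often hold only a part of the program.

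Summed expected counts were 34511074 for wild-type and 31178309 for knockout cells, with 48.4% and 47.1% of them in the 5 highest genes. Values below are counts, or CPM, counts scaled by TMM to a common library total. Ratios are knockout over wild-type, computed with a prior count of 0.5, and each has an exact 95% Clopper-Pearson interval that covers counting error only. With 1 library per group there is no replicate check and no p-value, and differences between cultures or clones are not in these intervals. Genes are termed expressed where the mean CPM of both libraries reached 1. Expressed genes were called, higher or lower, if the ratio reached 2-fold with an interval that excluded no difference. The targeted gene, CREB1, had 614 wild-type and 499 knockout counts (log2 ratio -0.23, interval -0.40 to -0.05). A count per gene is blind to small edits of its sequence and does not check the genotype label.

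Of the 10 genes, 7 were expressed. Among these 7, 4 were called higher (SPARC, CEMIP, VIM and FN1) and 0 were called lower. Over all 12886 expressed genes, 1.28% were called higher and 1.64% lower, and in the range of mean CPM that the 7 genes span (1.43 to 24.0) 1.43% of 7780 genes were called higher. Of all 376 called genes 43.9% were higher, or 54.6% with total-count scaling. Since the set was chosen with these ratios known, nothing is read from the difference between its count and these shares. The 10 genes together made up 31.3 CPM of wild-type and 104 CPM of knockout RNA. In such bulk samples, fewer cells of a type and less RNA per cell cannot be told apart. The expected counts of all 10 were whole numbers.

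**Figure D1:**
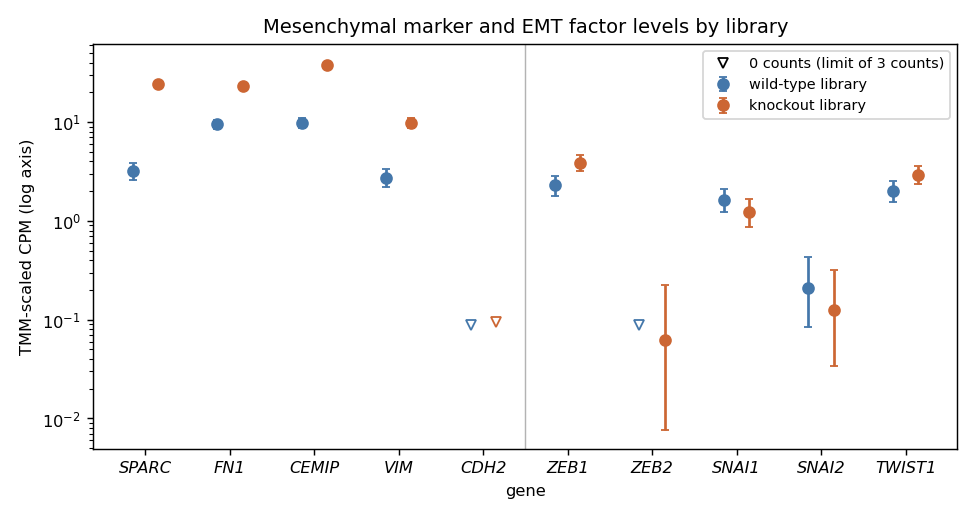
TMM-scaled CPM (log axis) of the 10 genes in the wild-type and the knockout library, 1 library each, with exact Poisson 95% intervals; open triangles stand for 0 counts and are drawn at the limit of 3 counts. SPARC, FN1, CEMIP and VIM lay higher in the knockout library with intervals that do not overlap. The same held for ZEB1, which was not called, and CDH2 had 0 counts in both.

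VIM (ENSG00000026025.9, chromosome 10) encodes vimentin, the intermediate filament protein of mesenchymal cells. It had 92 wild-type and 316 knockout counts, or 2.73 CPM (exact Poisson 95% interval 2.20 to 3.35) and 9.88 CPM (8.82 to 11.03). The knockout library was the higher one and the intervals of the levels did not overlap. The ratio was 3.60-fold (2.86 to 4.61), which 0.194% of expressed genes reached or exceeded.

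An antisense RNA gene, VIM-AS1, overlaps VIM on the opposite strand. Chosen after its values were seen, it had 11 wild-type and 78 knockout counts and was 7.17-fold higher (3.95 to 15.6). It passed the level filter through the knockout library. The sources used here do not give the strand setting of the authors' counting, so reads of VIM and VIM-AS1 where they overlap cannot be told apart.

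FN1 (ENSG00000115414.14, chromosome 2) encodes fibronectin, a matrix glycoprotein that cells bind through integrins. Its 319 wild-type and 741 knockout counts corresponded to 9.48 CPM (8.47 to 10.6) and 23.2 CPM (21.5 to 24.9). The knockout library was again higher, by 2.44-fold (2.14 to 2.80). Of the 10 genes, FN1 was the one just inside the 2-fold threshold, and ZEB1, at 1.69-fold, the one just outside it.

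SPARC (ENSG00000113140.6, chromosome 5) encodes osteonectin, a secreted collagen-binding glycoprotein that modulates contact between cells and matrix. It had 107 wild-type and 776 knockout counts, or 3.18 CPM (2.61 to 3.84) and 24.3 CPM (22.6 to 26.04). This was the largest ratio among the 7 expressed genes, 7.60-fold (6.23 to 9.43), and SPARC ranked 7 from the top among the 12886 expressed genes.

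CEMIP (ENSG00000103888.11, chromosome 15) encodes a protein needed for the breakdown of hyaluronan, a long matrix polysaccharide. With 330 wild-type and 1219 knockout counts it reached 9.81 CPM (8.78 to 10.9) and 38.1 CPM (36.01 to 40.3). The ratio was 3.88-fold (3.44 to 4.40), and CEMIP ranked 21 from the top. It had the most counts of the 10 genes in both libraries.

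CDH2 (ENSG00000170558.4, chromosome 18) encodes N-cadherin, the adhesion molecule that often replaces E-cadherin in EMT. It had 0 counts in both libraries, which at the limit of 3 counts allows up to 0.0892 CPM in wild-type and 0.0938 CPM in knockout cells. N-cadherin mRNA was therefore not detected at this depth in either library, and no ratio is given. E-cadherin, CDH1, had 903 wild-type and 971 knockout counts (log2 ratio 0.18, interval 0.05 to 0.31) and was not called.

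**Figure D2:**
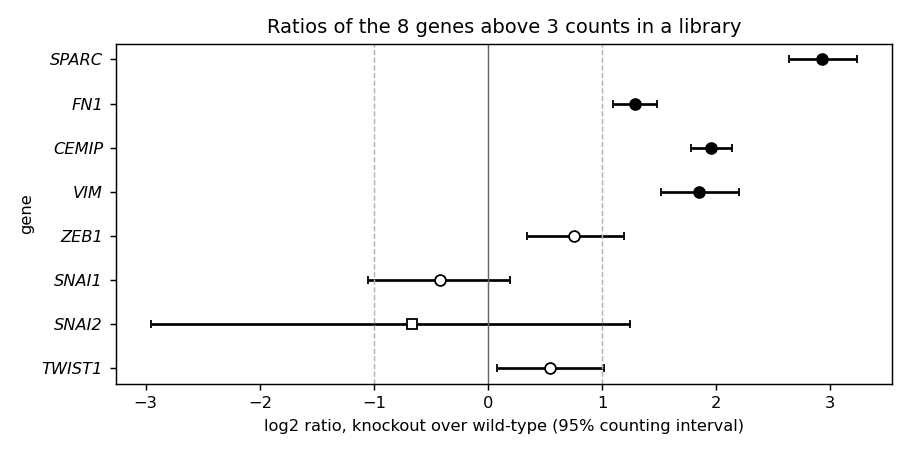
Log2 ratios of the 8 genes with more than 3 counts in at least 1 library, with exact 95% counting intervals; filled circles are genes called higher, open circles expressed genes not called, and the square SNAI2, which was below the level filter. The intervals of SPARC, FN1, CEMIP and VIM lie above the dashed line of 2-fold (a log2 ratio of 1), and those of SNAI1 and SNAI2 include 0.

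ZEB1 (ENSG00000148516.17, chromosome 10), a zinc finger and homeodomain repressor of epithelial genes, had 77 wild-type and 124 knockout counts, or 2.29 CPM (1.81 to 2.86) and 3.88 CPM (3.23 to 4.62). The knockout level was the higher one, and the intervals of the levels did not overlap. The ZEB1 ratio of 1.69-fold (1.27 to 2.28) excluded no difference by counting error but did not reach 2-fold, so ZEB1 was not called. With a threshold of 1.5-fold it was called. The antisense RNA ZEB1-AS1, also chosen after its values were seen, had 72 and 52 counts, with an interval of the log2 ratio (-0.94 to 0.14) that included 0. It overlaps ZEB1, so the same limit on strand holds for this gene pair.

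ZEB2 (ENSG00000169554.12, chromosome 2), the paralog of ZEB1, had 0 wild-type and 2 knockout counts. Both values lie under the limit of 3 counts, so no ratio is given. The miR-200 family is known to repress ZEB1 and ZEB2. MIR200CHG on chromosome 12, a host gene for a part of this family (chosen after its values were seen), had 38 and 34 counts. The family genes MIR200A, MIR200B and MIR429 lie on chromosome 1, and no host gene of theirs was read. Libraries of long RNA do not measure mature miRNAs.

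TWIST1 (ENSG00000122691.8, chromosome 7), the basic helix-loop-helix factor, had 67 wild-type and 93 knockout counts, or 1.99 CPM (1.54 to 2.53) and 2.91 CPM (2.35 to 3.56). The intervals of the levels overlap, while that of the ratio, 1.46-fold (1.06 to 2.03), begins just above no difference. TWIST1 was not called.

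SNAI1 (ENSG00000124216.3, chromosome 20), the Snail repressor, was the expressed gene of this set with the lower knockout level, at 55 and 39 counts, or 1.63 CPM (1.23 to 2.13) and 1.22 CPM (0.867 to 1.67). The log2 ratio was -0.42 with an interval of -1.05 to 0.20, so a difference in either direction was not detectable at this depth. SNAI2 (ENSG00000019549.4, chromosome 8), the Slug repressor, had 7 and 4 counts and was below the level filter, with an interval of -2.95 to 1.24. Of the 5 factors, then, 3 were expressed and 0 were called, and of the 5 mesenchymal genes 4 were expressed and all 4 were called. Over all expressed genes 376 of 12886 were called, so few calls would fall among 3 genes. The set was chosen with these ratios known, and nothing is read from the difference between factors and mesenchymal genes.

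Levels can be compared between genes per kilobase of exon, using the merged exon length of each gene in GENCODE 29. On this scale (CPM per kb) the order in the wild-type library was CEMIP (1.29), TWIST1 (0.979), SNAI1 (0.969), SPARC (0.658), FN1 (0.548), VIM (0.530), ZEB1 (0.265) and SNAI2 (0.0613). Every neighbouring pair from CEMIP down to VIM had overlapping counting intervals, whereas ZEB1 lay below VIM and SNAI2 below ZEB1 without overlap. The vimentin level per kb exceeded that of 10.1% of expressed genes, and the ZEB1 level that of 3.48%.

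In the knockout library the order of CPM per kb was SPARC (5.02), CEMIP (5.00), VIM (1.92), TWIST1 (1.43), FN1 (1.34), SNAI1 (0.723), ZEB1 (0.448) and SNAI2 (0.0369). SPARC and CEMIP overlapped, as did VIM with TWIST1, TWIST1 with FN1 and SNAI1 with ZEB1. SPARC was in the fourth place in the wild-type order and in the first place here. By comparison, the keratin KRT8, an epithelial filament protein, had 265 CPM per kb in wild-type and 230 in knockout cells, so keratin mRNA was far more abundant than vimentin mRNA in both. Merged exons include rarely used ones, which lowers the value of genes with many annotated transcripts such as FN1.

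**Figure D3:**
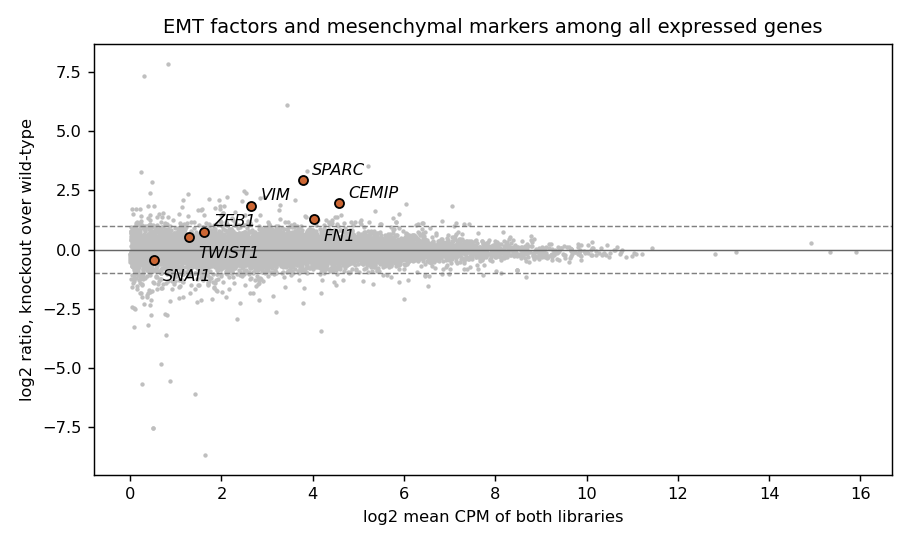
Log2 ratio, knockout over wild-type, against log2 mean CPM, with dashed lines at 2-fold. Grey points are those of the 12886 expressed genes that have a name in the annotation, and orange points the 7 expressed genes of the set. SPARC, CEMIP, VIM and FN1 lie above the upper line at low to moderate levels, and ZEB1, TWIST1 and SNAI1 lie between the lines.

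The promoters of the 4 genes called higher were read next, because CREB1 binds the cAMP response element (CRE). RefSeq windows (GRCh38.p14, 250 bases before to 50 after the annotated start) were at hand for 7 of the 10 genes. Both strands were searched for the full CRE, TGACGTCA, its core TGACG, which the full site contains, the E-box CAGGTG of SNAI and ZEB factors and the AP-1 site TGANTCA. The windows are given 5′ to 3′ on the strand of the gene, with matches in capitals. FN1 lies at chr2:215436019-215436318 (minus strand), CEMIP at chr15:80779120-80779419 (plus), SPARC at chr5:151686866-151687165 (minus) and VIM at chr10:17227991-17228290 (plus).

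FN1: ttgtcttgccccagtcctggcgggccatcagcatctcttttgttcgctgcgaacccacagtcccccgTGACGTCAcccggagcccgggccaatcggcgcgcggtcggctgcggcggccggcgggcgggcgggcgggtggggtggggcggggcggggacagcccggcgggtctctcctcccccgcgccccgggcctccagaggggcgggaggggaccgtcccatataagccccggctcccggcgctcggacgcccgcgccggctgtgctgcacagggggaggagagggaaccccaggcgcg

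CEMIP: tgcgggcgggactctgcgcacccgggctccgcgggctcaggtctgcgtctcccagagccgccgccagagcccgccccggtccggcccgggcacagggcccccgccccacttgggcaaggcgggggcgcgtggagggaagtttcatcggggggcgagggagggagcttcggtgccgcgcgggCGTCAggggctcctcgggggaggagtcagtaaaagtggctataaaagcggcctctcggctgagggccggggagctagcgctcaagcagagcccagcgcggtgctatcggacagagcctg

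SPARC: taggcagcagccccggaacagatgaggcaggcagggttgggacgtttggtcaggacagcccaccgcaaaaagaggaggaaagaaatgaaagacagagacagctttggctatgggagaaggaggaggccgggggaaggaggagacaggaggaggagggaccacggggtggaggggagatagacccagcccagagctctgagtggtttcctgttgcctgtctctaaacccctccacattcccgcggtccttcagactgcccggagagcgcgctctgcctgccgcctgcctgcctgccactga

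VIM: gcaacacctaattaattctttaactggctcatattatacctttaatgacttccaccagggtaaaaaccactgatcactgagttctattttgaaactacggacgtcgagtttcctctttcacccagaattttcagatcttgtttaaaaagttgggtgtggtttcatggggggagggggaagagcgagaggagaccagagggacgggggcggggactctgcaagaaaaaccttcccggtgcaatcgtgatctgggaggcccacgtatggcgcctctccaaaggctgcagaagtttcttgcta

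The FN1 window held a full CRE whose first base is at position -183 from the annotated start. Of 35116 RefSeq windows, 1.85% held this 8-letter sequence. The CEMIP window held the TGACG core on the opposite strand at position -69, as did 24.6% of windows on either strand. The SPARC and VIM windows held no match to any of the 4 motifs, which says only that these letters are not in these 300 bases. The E-box was found in 20.6% of windows, and the AP-1 letters in 7.71%. Of the 4 windows shown none held either. Of the other windows, ZEB1, which has 7 annotated starts, held the E-box in the window beginning at 31318167 and again, at 3 places, in the window beginning at 31318966 on chromosome 10. The TGACG core was also found in windows of genes that were not called, at 2 places each for ZEB1 and CDH2 and at 1 for ZEB2, and a CDH2 window held an AP-1 match.

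Over the 369 expressed genes with a full CRE in a window, FN1 among them, 1.08% were called higher and 2.17% lower. Their median log2 ratio was -0.05, beside 0.01 for the 9478 expressed genes with any window. Of those 9478 genes, 107 were called higher and 142 lower, and nothing is read from the 4 and 8 calls among the CRE-holding genes.

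The genes beside them on the chromosome were described next. Around the 4 genes called higher, the nearest 5 expressed protein-coding genes on each side gave 40 neighbours, of which 0 were called, beside 376 of all 12886 expressed genes. At that share few calls would fall among 40 genes, so the 0 is a description only. Their median log2 ratio was 0.04, with a range of -0.59 to 0.98. The median was -0.03 around SPARC, 0.10 around VIM, 0.16 around FN1 and 0.00 around CEMIP. The gene nearest to the threshold was CUBN, beside VIM, with 29 and 55 counts and a log2 ratio of 0.98.

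**Figure D4:**
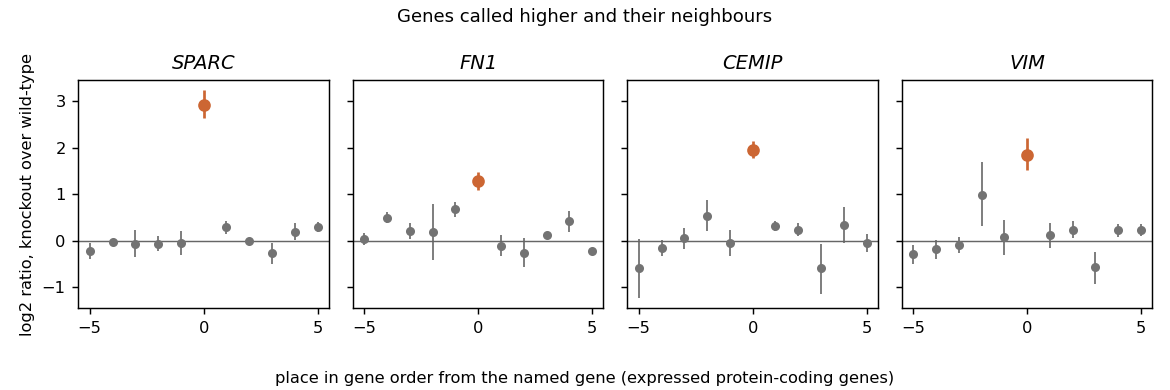
Log2 ratio, knockout over wild-type, of SPARC, FN1, CEMIP and VIM (orange, place 0) and of the 5 nearest expressed protein-coding genes on each side in the GENCODE order (grey), with 95% counting intervals. The 40 neighbours lie between -0.59 and 0.98, and each named gene lies above its own neighbours.

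The 10 gene lists around the mesenchymal genes and EMT factors were then described by counts and medians, beside a median of 0.01 and 51.2% above 0 for all expressed genes. Of all 12886 expressed genes, 376 were called. At that share few calls would fall in lists of this size, so nothing is read from the number of calls in a list. In a list of 39 other mesenchymal and matrix genes, 27 were expressed, 21 lay above 0 and the median log2 ratio was 0.30. Called higher were 2, the fibrillar collagen COL3A1 (7 and 69 counts, 9.73-fold, 4.77 to 26.8) and the collagen chaperone SERPINH1 (2973 and 6248 counts, 2.21-fold). COL3A1 passed the level filter through the knockout library. The microfibril gene FBN1 was called lower, at 51 and 19 counts or 2.51-fold, and passed the level filter through the wild-type library (0.594 CPM in knockout cells). The membrane protease MMP14 was not called, but was called higher with total-count scaling (log2 ratio 1.01). The most abundant members were S100A4 (log2 ratio 0.41), a calcium-binding protein linked to motility, and the tropomyosin TPM2 (0.10), neither of them called.

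In the list of 40 epithelial genes that EMT factors are known to repress, 38 were expressed, with 14 above 0 and 24 below it. The median was -0.07, between -0.09 and 0.00 over the scalings tried, so its sign was not stable. The epithelial transcription factor ELF3 was the called gene, 2.22-fold lower (2445 and 1045 expected counts). The desmosomal cadherin DSC2 (1.96-fold) was called higher with total-count scaling and with totals that leave out the 5 highest genes. KRT8 (log2 ratio -0.20) and KRT19 (-0.13), the most abundant, were not called. EPCAM, an epithelial adhesion molecule, had 3129 and 2929 counts (log2 ratio -0.02) and was not called.

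Of 19 other EMT-related transcription factors, 10 were expressed, 5 on each side of 0, with a median of -0.01 that turned to 0.06 with total-count scaling. HMGA2, an architectural chromatin protein, was called higher (1806 and 3734 counts, 2.18-fold). The inhibitor-of-DNA-binding genes ID1 (log2 ratio 0.00) and ID3 (0.09) were the most abundant. Of 24 cofactors and stability regulators of SNAI and ZEB proteins found, 23 were expressed and 0 called, with ratios between -0.32 and 0.36. They include the deacetylase HDAC1 (0.17) and the demethylase KDM1A (-0.01), corepressors of SNAI1.

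Among 17 expressed EMT-inducing ligands, receptors and signal transducers, the median was 0.16. The Notch ligand JAG1 was called higher, at 1956 and 6655 expected counts or 3.58-fold (3.40 to 3.77), and the TGF-beta co-receptor TGFBR3 lower, at 336 and 111 counts or 2.87-fold. The receptor tyrosine kinase MET, the most abundant of the list, had a log2 ratio of -0.30.

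For the ligand of the integrins, FN1, 15 genes of fibronectin receptors and matrix assembly were expressed, with 11 above 0 and a median of 0.30. LTBP1, which stores latent TGF-beta in the matrix, was called lower (239 and 84 counts, 2.69-fold) and 0 were called higher. The actin crosslinker FLNA (log2 ratio 0.45) and the integrin chain ITGB1 (0.23) were the most abundant and were not called.

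The hyaluronan genes around CEMIP included 9 expressed ones, with 6 above 0 and a median of 0.28. Both called genes were lower, and both encode hyaluronidases: HYAL1 (154 and 31 counts, 4.66-fold, 3.19 to 7.19) and HYAL3 (129 and 61.4 expected counts, 2.002-fold). HYAL3 lay at the threshold and lost its call with a prior count of 2, with unrounded counts or with either total-based scaling. The proteoglycan VCAN, which binds hyaluronan, had 3093 and 5857 counts and a ratio of 1.99-fold, and was called higher with either total-based scaling. The hyaluronan receptor CD44 had a log2 ratio of 0.20. The more abundant hyaluronidase HYAL2 (2121 and 2552 counts, log2 ratio 0.34) and CEMIP2, the paralog of CEMIP (671 and 775 counts, 0.28), lay on the same side of 0 as CEMIP and were not called. HYAL1 passed the level filter through the wild-type library, with 0.969 CPM in knockout cells.

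No gene of the other SPARC family and matricellular proteins was called (5 expressed, median 0.17). The most abundant were THBS1, thrombospondin, with 160 and 226 counts (log2 ratio 0.57), and FSTL1, which shares the follistatin-like domain of SPARC, with 453 and 621 counts (0.53). Of the cadherins and catenins around CDH2, 9 were expressed and 0 called, with a median of 0.18. The catenins CTNNB1 (0.10) and CTNNA1 (-0.05) were the most abundant.

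Of the other genes of intermediate filaments and their linkers around VIM, 13 were expressed, with 5 above 0 and a median of -0.09. Both called genes were lower: the keratin KRT7 (468 and 115 counts, 3.86-fold) and desmin, DES (142 and 64 counts, 2.10-fold). Desmin is a type III filament protein like vimentin, and differed in the opposite direction. DES lost its call with total-count scaling, at a log2 ratio of -0.998.

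**Figure D5:**
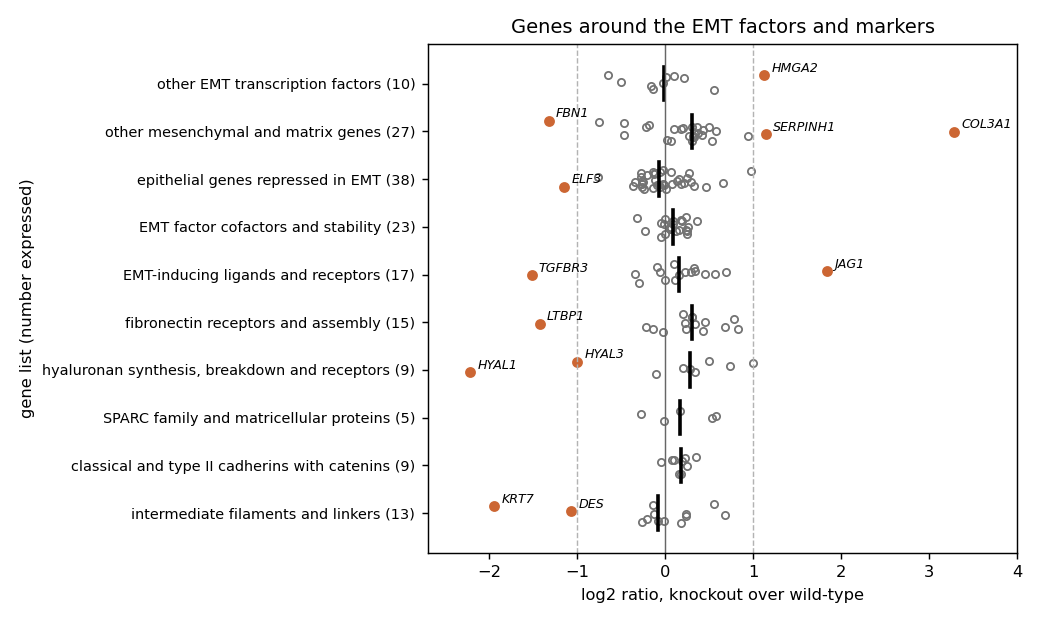
Log2 ratio, knockout over wild-type, of every expressed gene in the 10 lists (number expressed in brackets); filled points are called genes, bars the medians, and dashed lines mark 2-fold. COL3A1, JAG1, SERPINH1 and HMGA2 lie above the upper line and HYAL1, KRT7, TGFBR3, LTBP1, FBN1, ELF3, DES and HYAL3 at or below the lower one.

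The cell type was checked against marker lists. Of 13 colorectal epithelial markers, 8 were expressed and 0 called, with summed levels of 4199 CPM in wild-type and 3662 CPM in knockout cells. CEACAM5 and CDX1 had 0 counts in both. Of 10 fibroblast markers, COL1A1 was the expressed one (83 and 89 counts). LUM, COL1A2, FAP, POSTN and DPT had 0 counts in both libraries, and the summed level was 2.68 CPM in wild-type and 2.88 CPM in knockout cells. No endothelial or leukocyte marker was expressed, with sums of 0.802 and 0.719 CPM for the 5 endothelial markers found and 1.28 and 0.719 CPM for the 7 leukocyte markers. Of 5 smooth muscle markers 3 were expressed, with sums of 8.38 and 6.66 CPM over all 5 and DES lower as above. The part of these markers in the results was not tested.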

How the data were processed

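RNA was measured in 1 wild-type and 1 CREB1 knockout library of HCT116 cells. The authors' deposited values are expected counts, 1 per gene and library, made with cutadapt 2.0, STAR 2.4.2a and RSEM 1.2.26 on hg19, per the submitters' processing notes. RSEM apportions ambiguous reads between genes, so close copies can share counts. The sources used here do not give the annotation release, strand setting or filters. Column names gave each library's genotype.

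Identifiers without versions were matched to GENCODE 29 (GRCh38), and 52338 of 57820 (90.5%) had a name. Unmatched ones remained in the totals, with 37.0% of wild-type and 35.2% of knockout counts. Expected counts were rounded and scaled by TMM in edgeR 4.0.16 (R 4.3.3). Ratios used a prior count of 0.5. Intervals (95%) were Clopper-Pearson for ratios and exact Poisson for levels, from scipy 1.17.1; a count of 0 was read as a limit of 3 counts. They treat read pairs as independent molecules. The interval and the call rule were run on simulated counts with Poisson error only, with folds set in genes at a CPM of at least 5. No variation between cultures or clones was simulated, so this run does not check the calls beyond counting error.

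The 10 genes and the lists were chosen with earlier results of these data known. All 10 genes are named. In each list the rule named up to 4 called genes with the largest ratios and the 2 with the highest mean CPM, and other names are marked or complete a comparison. Alternatives were total-count, DESeq2 1.42.0, upper-quartile and top-gene-free scaling, a prior count of 2, unrounded counts, 2 other filters and 2 other folds.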

Additional observations from a re-analysis of the deposited data

How the results depend on the processing

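SPARC, CEMIP, VIM and FN1 were called higher under each of the 4 other scalings, with a prior count of 2, with unrounded counts, without a filter on low counts and at a mean CPM of at least 5. At 1.5-fold ZEB1 joined them, and at 3-fold FN1 was not called. Over the other scalings, priors and rounding, all 48 recomputed log2 ratios of the 8 genes with more than 3 counts stayed within their counting intervals. Of these, 0 changed sign. A change of scaling shifts all genes by nearly the same amount, small beside these intervals, so the 48 values are not separate checks. The range was 2.91 to 2.999 for SPARC, 1.94 to 2.03 for CEMIP, 1.83 to 1.92 for VIM and 1.27 to 1.36 for FN1. At a mean CPM of at least 5, 6 list genes named as called (COL3A1, FBN1, LTBP1, HYAL1, HYAL3 and DES) lay under the filter. The number of all genes called was 376, and it was 1086 without the filter on low counts, 137 at a mean CPM of at least 5, 1386 at 1.5-fold and 106 at 3-fold. The share of called genes that were higher was 43.9%, and it was 54.6% with total-count scaling, 50% with totals that leave out the 5 highest genes and 54.7% at a mean CPM of at least 5. Of 160 recomputed list counts and medians, 14 moved. Counts that changed by up to 1.5-fold and small changes of a median were not taken as moved. With total-count scaling, for instance, 4 in place of 3 other mesenchymal and matrix genes were called. The depth left ZEB2 and CDH2 without a ratio and SNAI2 with a wide interval, and each group is 1 library.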

Other observations

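Without the level filter, 7 more genes of the 10 lists met the call rule, 4 higher and 3 lower, and they were chosen after their values were seen. Over all 23251 genes with at least 1 count in a library, 1086 met the rule in this setting, 451 higher and 635 lower. Nothing is read from the number of such list genes. HAS2, a hyaluronan synthase, had 2 wild-type and 44 knockout counts, and the count ratio was 23.1 (6.04 to 197). The matrix glycoprotein TNC had 0 and 12 counts, 4.21-fold higher when the wild-type library is set at 3 counts. Its counting interval begins lower, at 2.92-fold. INHBA, an activin subunit, had 0 and 11 counts, 3.86-fold higher with the same setting, and its interval begins at 2.64-fold. CTGF, a matricellular protein, had 6 and 24 counts, a count ratio of 4.21-fold (1.68 to 12.6). In the other direction, the transcription factor RUNX2 had 14 and 1 counts, a count ratio of 13.3-fold lower (2.02 to 563). The SPARC family proteoglycan SPOCK3 had 34 and 9 counts, a count ratio of 3.59-fold lower (1.69 to 8.51), and the filament protein peripherin, PRPH, had 36 and 13 counts, a count ratio of 2.63-fold lower (1.36 to 5.41). In the marker lists, not counted here, the leukocyte marker CD68 also met the rule without the filter. It had 32.7 and 1.4 expected counts (log2 ratio -4.42, interval -10.3 to -2.39). All these genes hold few counts, and the values describe these 2 libraries.

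Although CDH2 itself had 0 counts, the next expressed genes after it in the order of chromosome 18 were desmosomal cadherins. DSC3 had 252 and 496 counts and was called higher (2.07-fold), DSC2 had 796 and 1485 counts (1.96-fold) and DSG2 had 1749 and 2291 counts (1.38-fold). DSC3, DSC2 and DSG2 encode adhesion molecules of epithelial desmosomes. Near ZEB2, LRP1B had 49 and 199 counts and was called higher (4.24-fold). These neighbours were chosen after their values were seen. The 10 neighbours of CDH2 ranged in log2 ratio from -0.96 (TAF4B) to 1.05, with a median of 0.12. Those of ZEB2 ranged from -0.82 (KIF5C) to 2.08, with a median of -0.05. Of all 12886 expressed genes 376 were called, and nothing is read from the calls beside CDH2 and ZEB2.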
